A study of Mus musculus with 100 samples.

Results

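The loci described here belong to 8 genes of nitric oxide, arginine and itaconate metabolism, Slc7a2, Ass1, Nos2, Gch1, Arg1, Arg2, Odc1 and Acod1 (also written Irg1). They were followed through every chromatin immunoprecipitation sequencing (ChIP-seq) table of a study of the corepressor NCoR in mouse macrophages. All regions whose nearest annotated gene start was that of a member were taken, which gave 543 of 610301 regions in 15 tables. Regions of all tables were joined in chains where neighbouring centres lay no more than 500 bp apart. This formed 82 elements, so the same stretch of DNA can be counted in several tables. A chain can be much longer than 500 bp, as at the Acod1 promoter (5358 bp), which holds 63 regions from 14 tables. An element can thus hold several regions of the same table, and counts of regions are not counts of independent sites. The assignment to a gene is by distance alone.

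Activated mouse macrophages turn arginine over by competing routes. SLC7A2 (the cationic amino acid transporter CAT2) carries arginine into the cell, ASS1 rebuilds it from citrulline, and NOS2 (inducible nitric oxide synthase) oxidises it to nitric oxide with the help of tetrahydrobiopterin, whose synthesis starts at GCH1. ARG1 in the cytosol and ARG2 in mitochondria instead cut arginine to urea and ornithine, and ODC1 decarboxylates ornithine to putrescine, the parent polyamine. ACOD1 diverts cis-aconitate from the tricarboxylic acid cycle to itaconate, an inhibitor of succinate dehydrogenase. Nos2 and Acod1 are classical targets of Toll-like receptor 4 (TLR4) in macrophages, whereas Arg1 is best known as a target of interleukin 4.

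The study used C57Bl6 bone marrow-derived macrophages (BMDMs) of young adult mice, given either vehicle (Veh) or the TLR4 agonist KLA (Kdo2-lipid A), for 6 h where a KLA time was labelled, and the p300 libraries used as vehicle are labelled as 0 h of KLA. NCoR, its partner histone deacetylase 3 (HDAC3), the coactivators PGC1b and p300, the kinase ERK1, the p65 subunit of NF-kB, the AP-1 member Fosl2 and the lineage factor PU.1 were profiled in wild type BMDMs under both conditions. Histone H3 acetylated at lysine 27 (H3K27ac), which marks active regulatory DNA, was mapped in NCoR flox/flox cells (WT) and NCoR flox/flox, LysMCre cells (NKO), in PGC1b flox/flox cells and PGC1b flox/flox, LysMCre cells, each with vehicle or KLA, and in wild type cells given DMSO with vehicle, DMSO with KLA, or the HDAC3 inhibitor RGFP966 with KLA. Further libraries covered PGC1b with DMSO and vehicle, DMSO and KLA, or an ERK inhibitor and KLA, NCoR with the ERK inhibitor and KLA, and ERK1 and p300 in bone marrow cells on day 0 and on day 4 of culture with RANKL, which drives osteoclast formation. LysM-Cre deletes in myeloid cells, so both flox/flox controls carry the floxed alleles without Cre, and none of these libraries measures how complete a deletion was.

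Each group held 2 libraries, described in the labels as biological replicates without saying which mice or cultures they came from, so p-values measure only the spread between these libraries, part of which may be technical. The 48 factor libraries held 4.30 to 21.51 M tags and the 22 H3K27ac libraries 11.47 to 19.64 M. Values below are tags per 10 M of the library total, and regions are named by their distance from the gene start. A region counts as called where edgeR gave an adjusted p under 0.05 and a change of more than 2-fold, with p-values adjusted over all tested regions of its table. The SE given with a log2 fold change is its absolute value divided by the square root of the edgeR F statistic. It is thus derived from the test and is not a direct standard error. Where a group lay at or next to 0 it should not be read as the precision of the fold change. The cells were bulk cultures, in which fewer cells of a type and less signal per cell cannot be told apart. Under vehicle, 6 of 6 macrophage marker genes had H3K27ac regions, as did 5 of 6 osteoclast marker genes in the WT and NKO table and 6 of 6 in the DMSO table. None of 4 B cell and none of 4 fibroblast genes had an H3K27ac region, and 1 of 4 T cell genes (34.1 tags per 10 M in WT) and 1 of 4 neutrophil genes (0 in WT) had regions in the WT and NKO table. The B cell gene Ms4a1 carried PU.1 (1267 summed over 9 regions) and p300 (1008 over 11 regions) under vehicle, and the part of other cell types in the results was not tested. Replicate 2 of HDAC3 with KLA (46.5% of its tags in regions) and replicate 1 of Fosl2 with KLA (4.30 M tags, 16.4% in regions against 32.3% in its partner) stood apart from the other libraries of their tables.

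The regions on which the results turn are shown by their central 200 bases, read from the plus strand of GRCm38.p6 (mm10). Capitals mark matches, on either strand, to the NF-kB and interferon-stimulated response element (ISRE) motifs and to AP-1 (TGACTCA, whose other strand reads TGAGTCA), CRE (TGACGTCA), PU.1 (GAGGAAGT), C/EBP (TTGCNNCAA), E-box (CACGTG) and STAT (TTCNNNGAA) motifs. The Nos2 promoter and the element 33.6 kb upstream of Nos2 are given first because p65, p300, NCoR, HDAC3 and PGC1b all rose at both. The promoter holds an NF-kB match, and the distal element holds overlapping ISRE matches and an NF-kB match.
Nos2 promoter, chr11:78920610-78920809: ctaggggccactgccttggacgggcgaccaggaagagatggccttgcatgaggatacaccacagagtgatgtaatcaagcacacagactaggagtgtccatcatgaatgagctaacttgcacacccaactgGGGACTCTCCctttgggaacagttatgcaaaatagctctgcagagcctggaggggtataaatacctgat
Nos2 33.6 kb upstream, chr11:78887125-78887324: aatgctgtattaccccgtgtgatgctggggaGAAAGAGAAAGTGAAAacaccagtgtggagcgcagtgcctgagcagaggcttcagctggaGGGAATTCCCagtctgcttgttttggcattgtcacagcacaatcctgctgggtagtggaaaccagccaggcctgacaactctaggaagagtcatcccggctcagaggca
The Acod1 promoter window and the Slc7a2 window 3.2 kb upstream, which gained among the highest p65 and p300 levels of their loci, hold none of the motifs searched.
Acod1 promoter, chr14:103046817-103047016: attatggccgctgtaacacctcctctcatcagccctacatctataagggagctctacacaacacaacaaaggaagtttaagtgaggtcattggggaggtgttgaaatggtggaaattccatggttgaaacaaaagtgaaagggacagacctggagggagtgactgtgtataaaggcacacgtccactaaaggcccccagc
Slc7a2 3.2 kb upstream, chr8:40859043-40859242: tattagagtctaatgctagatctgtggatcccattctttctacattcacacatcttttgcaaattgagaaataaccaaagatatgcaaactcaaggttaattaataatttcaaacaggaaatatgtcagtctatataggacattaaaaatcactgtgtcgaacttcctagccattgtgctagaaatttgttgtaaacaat
The Ass1 element 24 kb upstream holds PU.1, CRE and NF-kB matches in that order, and the Odc1 element 37.6 kb upstream holds STAT, NF-kB and C/EBP matches.
Ass1 24 kb upstream, chr2:31446178-31446377: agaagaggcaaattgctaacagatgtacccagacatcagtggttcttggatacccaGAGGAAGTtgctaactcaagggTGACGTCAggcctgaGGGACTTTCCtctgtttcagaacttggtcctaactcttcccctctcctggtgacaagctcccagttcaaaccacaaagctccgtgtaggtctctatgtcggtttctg
Odc1 37.6 kb upstream, chr12:17507193-17507392: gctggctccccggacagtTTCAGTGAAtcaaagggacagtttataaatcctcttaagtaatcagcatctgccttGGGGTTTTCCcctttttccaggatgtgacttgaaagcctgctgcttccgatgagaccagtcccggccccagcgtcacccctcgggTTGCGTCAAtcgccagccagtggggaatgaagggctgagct
Both Arg1 windows differ in their matches, with an ISRE match in the element 22.9 kb upstream, which lost factors with KLA, and a pair of AP-1 matches in the element 4.2 kb upstream.
Arg1 22.9 kb upstream, chr10:24950299-24950498: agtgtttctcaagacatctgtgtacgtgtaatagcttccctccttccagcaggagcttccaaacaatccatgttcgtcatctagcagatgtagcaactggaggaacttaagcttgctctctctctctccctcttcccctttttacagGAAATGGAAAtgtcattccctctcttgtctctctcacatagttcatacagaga
Arg1 4.2 kb upstream, chr10:24931579-24931778: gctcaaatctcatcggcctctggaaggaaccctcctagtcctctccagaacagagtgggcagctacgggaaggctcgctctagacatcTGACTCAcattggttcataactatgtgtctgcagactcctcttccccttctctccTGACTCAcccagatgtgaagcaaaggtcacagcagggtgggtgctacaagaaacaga
Among 67990 windows of p300 regions the NF-kB motif was present in 7.32%, AP-1 in 18.5%, CRE in 0.732%, ISRE in 5.26%, PU.1 in 10.2%, C/EBP in 2.14%, E-box in 4.35% and STAT in 7.41%. A match describes letters only, and the lack of a match says nothing about a factor.

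To ask which factors came to these loci with TLR4 activation, the vehicle and KLA libraries of each factor were compared. The NF-kB subunit p65 rose at 46 of 52 tested member regions, where 57.0% of all tested p65 regions rose. p300, a histone acetyltransferase, rose at 68 of 80 (42.1% of all p300 regions). The members' median log2 fold change was 3.34 for p65 and 3.20 for p300, against 1.46 and 0.65 over all tested regions, and with the 6 p65 and 3 p300 regions empty under vehicle set to their lower bounds the members' medians were 3.32 and 3.10. Scaling by TMM factors in place of library totals lowered the median of all regions by 1.22 for p65 and by 0.52 for p300, and then left 30 member regions higher and 2 lower for p65, and 64 higher and 2 lower for p300.

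NCoR and HDAC3 also rose at more member regions than they fell, but mostly at Nos2, Acod1 and Slc7a2. At the other loci NCoR rose at 0 of 5 Arg1, 1 of 4 Arg2, 0 of 3 Ass1, 1 of 6 Gch1 and 2 of 7 Odc1 regions. NCoR rose at 30 of 51 member regions and fell at 2, with 23.4% of all NCoR regions higher and 16.7% lower. HDAC3 rose at 31 of 55 and fell at 2 (27.5% and 11.3% of all). The members' medians were 1.67 for NCoR and 1.95 for HDAC3, against 0.10 and 0.27 over all regions. NCoR calls rested on the KLA libraries, since 19 were left without replicate 1 and 14 without replicate 2 of KLA.

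PGC1b rose at 25 of 43 member regions and fell at 1 (16.4% and 6.35% of all PGC1b regions), with a median of 1.48 against 0.06, and 16 calls were left without replicate 1 of vehicle. ERK1 rose at 17 of 36 (10.3% of all), with a median of 2.26 against 0.26. Fosl2 rose at 16 of 33 and fell at 1 (11.4% and 4.19% of all), but none was called when either vehicle library was left out and 7 when the replicate number entered the fit as a block. PU.1 rose at 5 of 26 and fell at 2 (4.53% and 21.7% of all), and TMM scaling, which raised the median of all PU.1 regions by 0.42, gave 10 higher and 1 lower. The plot of fold changes by locus shows that the gains gathered at Slc7a2, Nos2 and Acod1, while Arg1 held both NCoR losses and both HDAC3 losses.

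**Figure D1:**
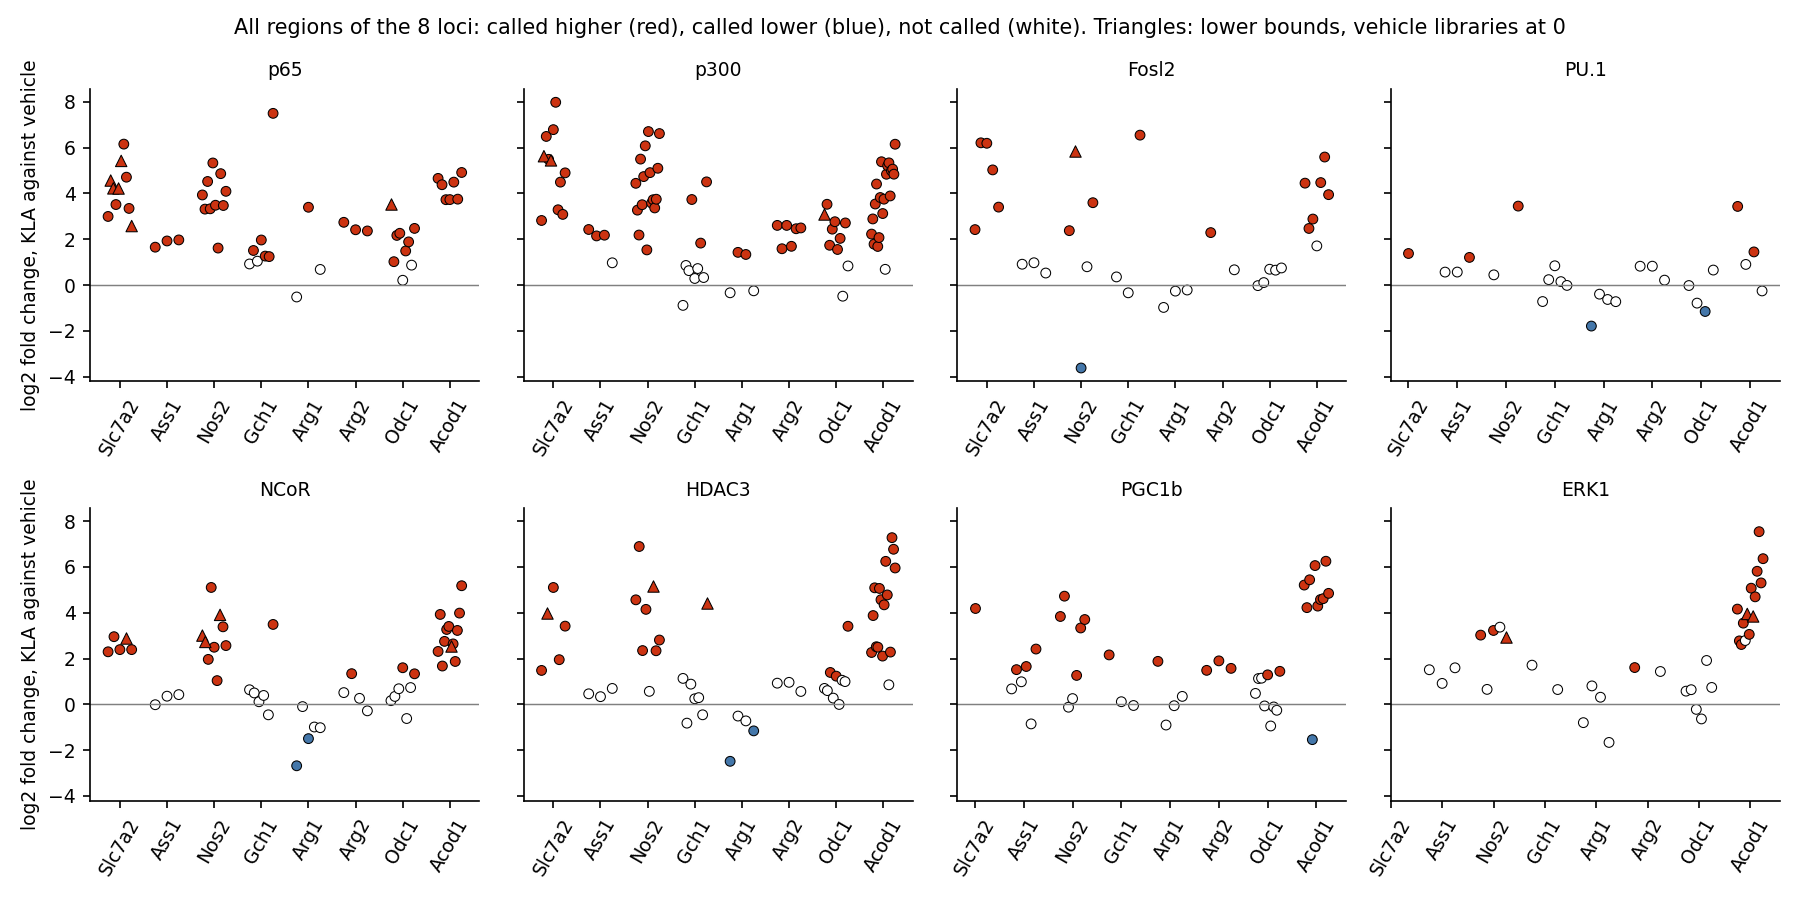
Log2 fold change of KLA against vehicle (y axis) for every tested region of the 8 loci (x axis), 1 panel for each factor. Red points were called higher, blue lower and white not called, and triangles are lower bounds for regions whose vehicle libraries were at 0, with NCoR higher at 9 of 9 Nos2, 12 of 12 Acod1 and 5 of 5 Slc7a2 regions and at 0 of 5 Arg1 regions.

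Arginine import was represented by Slc7a2 (chr8:40862341-40922070, plus strand). Each tested Slc7a2 region rose for p65 (10 of 10), p300 (11 of 11), NCoR (5 of 5), HDAC3 (5 of 5) and Fosl2 (5 of 5), and no ERK1 region was assigned to this gene. In the intergenic element 3.2 kb upstream, p300 stood at 0 and 1.31 tags per 10 M under vehicle and at 185 and 176 with KLA (log2 fold change 7.98 ± 0.43 SE, edgeR adjusted p = 4.8e-10). Thus the KLA libraries lay far above vehicle libraries that were at or next to 0. p65 in the same element went from 0 and 4.66 to 177 and 159 (6.15 ± 0.55, edgeR adjusted p = 5.7e-06). A further element 10.2 kb upstream was empty in both vehicle libraries and reached 97.2 and 93.0 for p300, at least 49.4-fold higher, and 71.5 and 56.8 for p65, at least 23.6-fold higher.

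At the Slc7a2 promoter, 0.6 kb upstream of the start, p65 rose from 1.75 and 6.53 to 116 and 102 (4.71 ± 0.48 SE, edgeR adjusted p = 1.4e-05) and p300 from 15.7 and 10.5 to 135 and 123 (3.29 ± 0.27, edgeR adjusted p = 4.7e-08). NCoR there was 5.97 and 11.8 under vehicle and 34.8 and 58.8 with KLA (2.39 ± 0.52, edgeR adjusted p = 0.0042), and HDAC3 was 15.3 and 12.2 against 43.4 and 65 (1.95 ± 0.50, edgeR adjusted p = 0.00047). No vehicle library reached a KLA library for any of these factors. The NCoR call was lost without KLA replicate 2 (1.96), and the HDAC3 call without vehicle replicate 1 (2.12) or 2 (1.80). PGC1b appeared at 36.0 and 26.3 with KLA against 3.52 and 0 (4.20 ± 0.76, edgeR adjusted p = 0.00062), a call that DESeq2 did not make (4.00). PU.1 had a single region at this gene, 11.2 kb upstream, which held PU.1 under vehicle (91.0 and 64.7) and more with KLA (201 and 212, 1.39 ± 0.12, edgeR adjusted p = 2.1e-21).

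Ass1 (chr2:31470270-31520670, plus strand), which recycles citrulline, was bound mainly in a cluster 22.5 to 27.6 kb upstream of its start. p65 rose at 3 of 3 Ass1 regions and p300 at 3 of 4, while NCoR and HDAC3 were called at 0 of 3 each. In the element 24 kb upstream p65 was already high under vehicle (116 and 88.6) and reached 372 and 408 (1.93 ± 0.21 SE, edgeR adjusted p = 2.2e-05). p300 there rose from 45.8 and 47.3 to 210 and 211 (2.18 ± 0.18, edgeR adjusted p = 4.8e-08). NCoR, at 46.6 and 129 under vehicle and 133 and 93.4 with KLA, overlapped between the groups (0.36 ± 0.39, edgeR adjusted p = 0.48). The p65 gain depended on the scaling, because TMM factors gave 0.69 and no call, whereas the p300 call held.

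PU.1 met the same cluster in both states. It rose in the element 22.5 kb upstream from 49.6 and 41.1 to 113 and 98.1 (1.21 ± 0.16 SE, edgeR adjusted p = 6e-11) and was 158 and 167 against 237 and 243 in the element 24 kb upstream, a change under 2-fold (0.57 ± 0.10, edgeR adjusted p = 6.2e-08). PGC1b rose in the element 27.6 kb upstream from 15.3 and 18.6 to 56.8 and 41.8 (1.51 ± 0.39, edgeR adjusted p = 0.008), a call lost without vehicle replicate 1 (1.39) or 2 (1.67). At the Ass1 promoter PGC1b was the factor with a region, at 2.94 and 3.72 under vehicle and 22.9 and 14.3 with KLA (2.41 ± 0.65, edgeR adjusted p = 0.011), again lost without vehicle replicate 1 (2.27) or 2 (2.60).

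**Figure D2:**
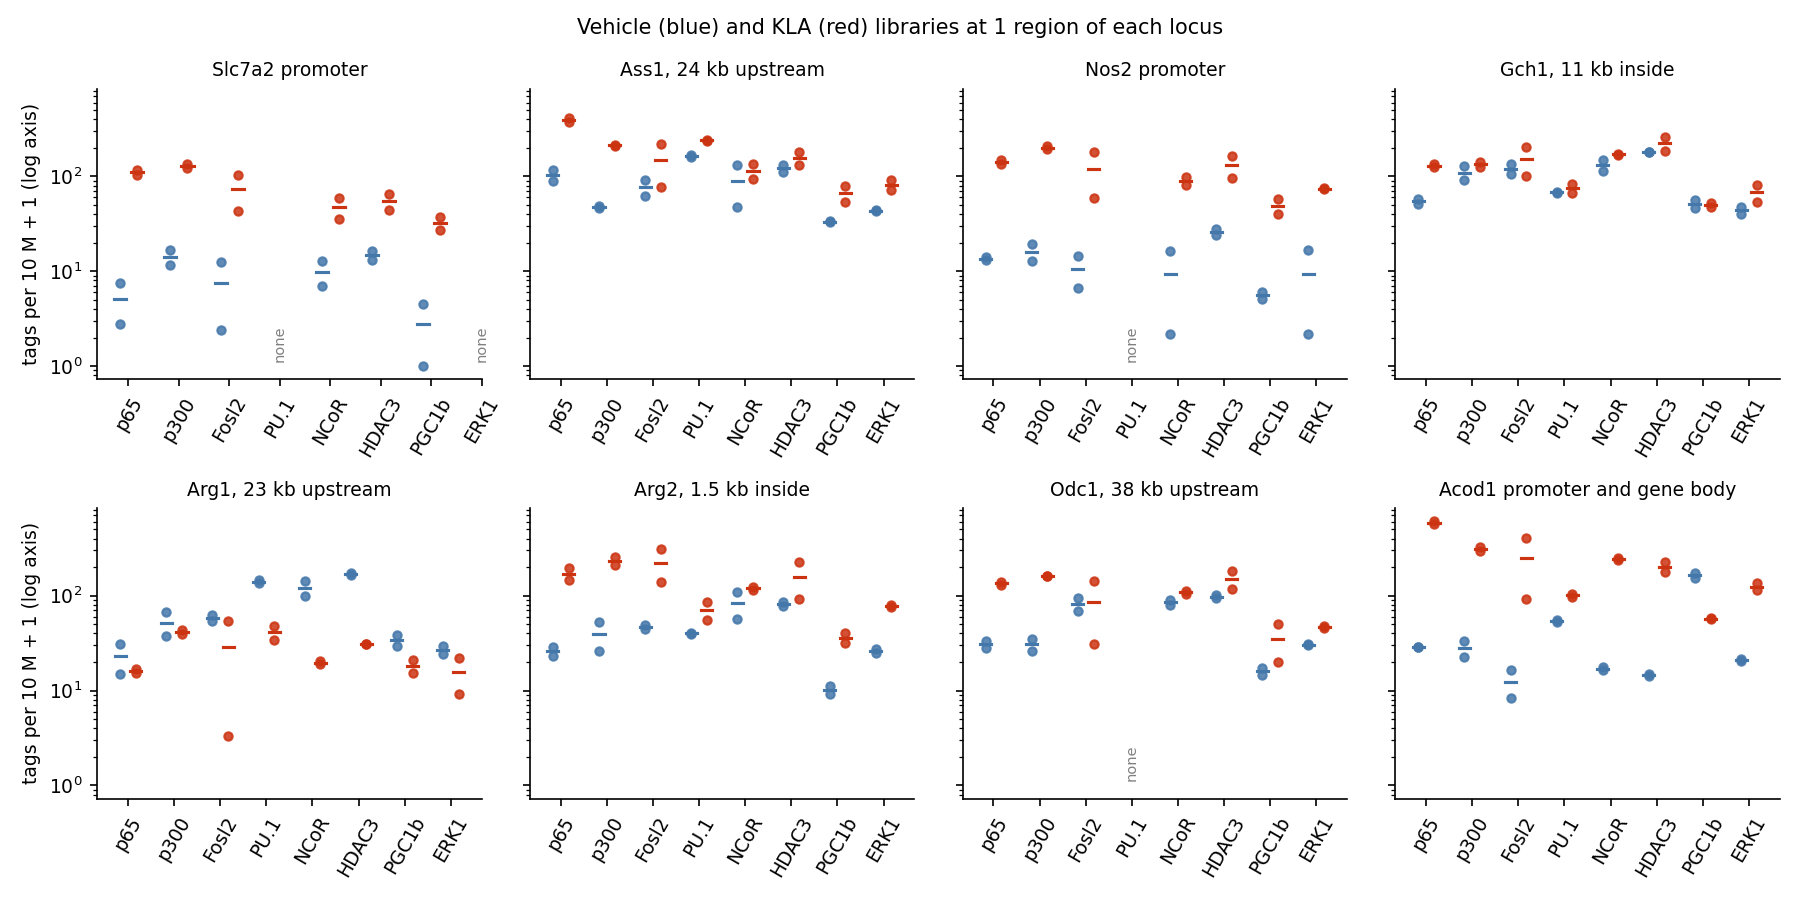
Tags per 10 M plus 1 on a log axis (y axis) for each of 8 factors (x axis) at 1 element of each locus, the strongest region of that element in each table. Points are the 2 vehicle (blue) and 2 KLA (red) libraries, bars their means, and "none" marks factors without a region there. The separation of p65, p300, NCoR, HDAC3, PGC1b and ERK1 at the Nos2 promoter can be set beside the Arg1 element 22.9 kb upstream, where NCoR went from 98.0 and 142 to 17.8 and 19.4. The Acod1 element spans 5358 bp from the promoter into the gene body, so its factors may be shown at different regions.

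Nos2 (chr11:78920787-78960226, plus strand) rose at 16 of 16 p300 regions, 10 of 10 p65 regions and 9 of 9 NCoR regions, and at 7 of 8 HDAC3 regions. At the promoter p65 was 13.1 and 12.1 under vehicle and 134 and 148 with KLA (3.47 ± 0.32 SE, edgeR adjusted p = 7.7e-06). p300 rose there from 11.9 and 18.4 to 192 and 209 (3.72 ± 0.24, edgeR adjusted p = 2.7e-09). The groups were widely separated for both. HDAC3 rose from 23.3 and 27.1 to 96.1 and 165 (2.34 ± 0.40, edgeR adjusted p = 7.7e-08), NCoR from 15.5 and 1.18 to 96.4 and 79.5 (3.38 ± 0.59, edgeR adjusted p = 0.0012) and PGC1b from 4.11 and 5.11 to 56.8 and 39.5 (3.33 ± 0.48, edgeR adjusted p = 8.9e-05). ERK1 was 15.7 and 1.16 under vehicle and 75.0 and 72.1 with KLA (3.22 ± 0.73, edgeR adjusted p = 0.018). Both KLA libraries lay above both vehicle libraries for each of these factors, and PU.1 had no region there.

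Distal Nos2 elements fell into those bound before treatment and those near 0 before it. The intergenic element 4.2 kb upstream carried PU.1 at 140 and 159 under vehicle and 198 and 208 with KLA, a change of less than 2-fold (0.45 ± 0.10 SE, edgeR adjusted p = 4.5e-05). In that element p300 rose from 50.1 and 56.5 to 150 and 159 (1.54 ± 0.19, edgeR adjusted p = 4.6e-06), whereas HDAC3 (86.6 and 79.1 against 121 and 125, edgeR adjusted p = 0.21) and PGC1b (49.9 and 33.9 against 50.2 and 49.2, edgeR adjusted p = 0.63) were not called. p65 rose there from 39.4 and 57.8 to 142 and 155 with library totals (1.62 ± 0.27, edgeR adjusted p = 0.00042) but not with TMM factors (0.40), and the NCoR call (35.8 and 75.3 against 126 and 103, 1.03 ± 0.33, edgeR adjusted p = 0.027) was lost without vehicle replicate 1 (0.60) or KLA replicate 1 (0.89) or 2 (1.17).

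By contrast, the intronic element 25.3 kb inside Nos2 was nearly empty of p300 under vehicle (3.13 and 0) and reached 175 and 152 with KLA (6.61 ± 0.43 SE, edgeR adjusted p = 3.2e-09). PU.1 itself was gained at that intronic site, from 7.76 and 7.47 to 82.4 and 85.4 (3.45 ± 0.26, edgeR adjusted p = 1.4e-25). It was the Nos2 region at which PU.1 passed the 2-fold limit. NCoR followed with 14.3 and 8.24 against 56.7 and 77.5 (2.56 ± 0.44, edgeR adjusted p = 0.0011). Upstream, the element at 33.6 kb with ISRE and NF-kB matches gained p300 from 14.4 and 15.1 to 162 and 175 (3.51 ± 0.24, edgeR adjusted p = 4.8e-09), HDAC3 from 28.4 and 29.3 to 128 and 169 (2.35 ± 0.39, edgeR adjusted p = 2.9e-08) and NCoR from 20.3 and 37.7 to 125 and 102 (1.96 ± 0.34, edgeR adjusted p = 0.0012).

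Fosl2, an AP-1 member, was called higher at 3 of 5 Nos2 regions, which were the promoter and the elements 33.6 kb and 31.4 kb upstream. In the last of these Fosl2 was at 0 in both vehicle libraries and at 149 and 279 with KLA, at least 58.1-fold higher, although this call too was lost without either vehicle library. p300 rose there from 8.78 and 5.91 to 181 and 216 (4.74 ± 0.27 SE, edgeR adjusted p = 8.4e-10). A region 0.9 kb upstream of the start behaved alike for the corepressors, with HDAC3 at 0 in both vehicle libraries and at 48.1 and 91.3 with KLA, at least 36.3-fold higher, and NCoR at 0 against 57.5 and 49.1, at least 15-fold higher. Fosl2 fell at 1 Nos2 region, 5.1 kb upstream (35.3 and 22 against 0 and 3.51, -3.62 ± 1.24, edgeR adjusted p = 0.028), a call lost with the replicate block and without either vehicle library (-3.36 and -4.02).

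Gch1 (chr14:47153895-47189413, minus strand), the entry enzyme of tetrahydrobiopterin synthesis, was bound before KLA at most of its regions. p65 rose at 5 of 7 Gch1 regions, p300 at 3 of 9, and NCoR, HDAC3, Fosl2 and PGC1b at 1 each of 6, 7, 3 and 3. In the intron, 11.4 kb inside the gene, p300 was 127 and 90.7 under vehicle and 125 and 141 with KLA (0.29 ± 0.19 SE, edgeR adjusted p = 0.19) and HDAC3 was 181 and 181 against 185 and 262 (0.29 ± 0.37, edgeR adjusted p = 0.56). p65 there rose from 56.9 and 50.3 to 126 and 133 with library totals (1.27 ± 0.26, edgeR adjusted p = 0.0013), but TMM factors gave 0.04 and no call.

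A different picture held 29.2 kb inside Gch1. p65 went from 0.875 and 0 to 84.1 and 114 (7.50 ± 0.68 SE, edgeR adjusted p = 6.4e-06), p300 from 0 and 3.29 to 38.4 and 37.8 (4.51 ± 0.67, edgeR adjusted p = 2.7e-05), and HDAC3 from 0 in both libraries to 33.4 and 49.2, at least 21.5-fold higher. NCoR was 7.17 and 0 against 36.4 and 45.7 (3.49 ± 0.76, edgeR adjusted p = 0.0041), a call not made by DESeq2 (3.45) or without KLA replicate 2 (3.31). This intronic region was the Gch1 region at which NCoR, HDAC3 and Fosl2 were called. PU.1 was lower with KLA 1.3 kb inside the gene, at 187 and 201 against 113 and 122, a change of less than 2-fold (-0.72 ± 0.11, edgeR adjusted p = 2.2e-09).

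Arg1 (chr10:24915207-24927470, minus strand) stood against the other loci. NCoR rose at 0 of 5 Arg1 regions and fell at 2, and HDAC3 rose at 0 of 4 and fell at 2. In the element 22.9 kb upstream NCoR fell from 98.0 and 142 to 17.8 and 19.4 (-2.68 ± 0.33 SE, edgeR adjusted p = 0.00022), HDAC3 from 162 and 174 to 29.9 and 29.9 (-2.49 ± 0.40, edgeR adjusted p = 7.5e-09) and PU.1 from 133 and 144 to 47.1 and 33.1 (-1.79 ± 0.16, edgeR adjusted p = 1.1e-20). In all 3 factors the KLA libraries lay well below the vehicle libraries. p65 there was low in both states (14.0 and 29.8 against 16 and 14.4, -0.52 ± 0.54, edgeR adjusted p = 0.41) and was called lower with TMM factors (-1.72).

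Nearer the gene the factors parted. In the element 2.9 kb upstream NCoR fell from 284 and 387 to 116 and 122 (-1.5 ± 0.21 SE, edgeR adjusted p = 0.00039) while p300 rose from 60.8 and 67.7 to 160 and 165 (1.34 ± 0.18, edgeR adjusted p = 1.1e-05). NCoR and p300 thus changed in opposite directions there. They came from library sets of different dates, with a reference of 6 h of vehicle for NCoR and 0 h of KLA for p300. The p300 change kept its direction but missed the 2-fold limit with TMM factors (0.81) and DESeq2 (0.86). HDAC3 at this Arg1 element was 276 and 257 against 112 and 218 (-0.72 ± 0.37, edgeR adjusted p = 0.11), and was called lower with TMM factors (-1.06), with DESeq2 (-1.05) or without KLA replicate 2 (-1.25). In the element 4.2 kb upstream, the pair of AP-1 matches, p65 rose from 4.38 and 1.86 to 34.7 and 33.5 (3.40 ± 0.62, edgeR adjusted p = 0.00069). At the promoter, 0.7 kb upstream, HDAC3 fell from 64.7 and 78.0 to 33.4 and 29.9 (-1.16 ± 0.42, edgeR adjusted p = 0.017), a call lost without vehicle replicate 1 (-1.29) or 2 (-1.02). PGC1b rose 33.8 kb upstream from 9.99 and 18.1 to 75.4 and 32.6 (1.88 ± 0.45, edgeR adjusted p = 0.0056), lost without vehicle replicate 1 (1.54).

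Arg2 (chr12:79130788-79156301, plus strand), the mitochondrial arginase, was bound at intronic elements, and by PGC1b also at an intergenic element 7.8 kb upstream. p300 rose at 6 of 6 and p65 and PGC1b at 3 of 3 Arg2 regions, NCoR at 1 of 4 and HDAC3 at 0 of 3. In the element 1.5 kb inside the gene p300 rose from 25.1 and 51.3 to 256 and 207 (2.61 ± 0.25 SE, edgeR adjusted p = 2e-07) and p65 from 28.0 and 22.4 to 146 and 193 (2.74 ± 0.29, edgeR adjusted p = 2.1e-05). HDAC3 was 77.1 and 84.1 against 90.3 and 225, where the higher KLA library was the one with the larger share of tags in regions (0.92 ± 0.36, edgeR adjusted p = 0.029, under 2-fold). NCoR, at 56.2 and 109 against 123 and 113, was not called (0.51 ± 0.30, edgeR adjusted p = 0.19), but was called higher without vehicle replicate 2 (1.07). Both Arg2 and Arg1 had p300 gains near the start, but their NCoR values went down at Arg1 and did not pass the test at Arg2 in these elements, and the difference between the genes was not tested. ERK1 rose in the same intronic element from 23.6 and 26.6 to 75.0 and 78.9 (1.60 ± 0.43, edgeR adjusted p = 0.033), which was no longer called under TMM scaling (1.40) or when any 1 library was left out (1.53 to 1.70).

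Odc1 (chr12:17544808-17551502, plus strand), which commits ornithine to polyamines, gained p300 and p65 at distal elements, while neither was called at its promoter. p300 rose at 8 of 10 and p65 at 7 of 9 Odc1 regions, NCoR at 2 of 7 and HDAC3 at 3 of 9. In the element 37.6 kb upstream p300 rose from 25.1 and 34.2 to 160 and 162 (2.44 ± 0.22 SE, edgeR adjusted p = 1.2e-07) and p65 from 27.1 and 32.6 to 139 and 130 (2.17 ± 0.28, edgeR adjusted p = 7.8e-05), the latter under 2-fold with TMM factors (0.95). At the promoter p300 was 38.9 and 49.3 against 36.8 and 25.9 (-0.49 ± 0.32, edgeR adjusted p = 0.19) and was called lower with TMM factors (-1.01). p65 at the promoter was 56.0 and 59.7 against 68.1 and 65.7 (0.21 ± 0.29, edgeR adjusted p = 0.54), and TMM factors turned it to -1.01.

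PGC1b did rise at the Odc1 promoter, from 34.1 and 33.0 to 88.5 and 76.1 (1.29 ± 0.31 SE, edgeR adjusted p = 0.0055), a call lost without vehicle replicate 1 (1.31) or 2 (1.27). In the separate DMSO experiment it was 31.7 and 37.9 against 116 and 78.9 (1.49 ± 0.46, edgeR adjusted p = 0.026), not called with TMM factors (1.03), with DESeq2 (1.02) or without DMSO vehicle replicate 1 (1.35) or 2 (1.61) or DMSO KLA replicate 1 (1.19). HDAC3 at this promoter stayed at 51.6 and 48.7 against 45.1 and 56.2 (-0.01 ± 0.41, edgeR adjusted p = 0.99). PU.1 fell 13.8 kb upstream of Odc1, from 86.9 and 80.9 to 34 and 41.4 (-1.15 ± 0.18, edgeR adjusted p = 1.2e-08).

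Acod1 (chr14:103047012-103056573, plus strand), the itaconate enzyme, had the most p300, HDAC3, ERK1 and NCoR regions of the 8 loci. p300 rose at 19 of 20 Acod1 regions, HDAC3 at 15 of 16, ERK1 at 13 of 14, NCoR at 12 of 12, PGC1b at 9 of 10, p65 at 7 of 7 and Fosl2 at 6 of 7. At the promoter p65 rose from 28.0 and 28.0 to 566 and 605 (4.38 ± 0.22 SE, edgeR adjusted p = 6.4e-07), p300 from 21.3 and 32.2 to 293 and 329 (3.54 ± 0.20, edgeR adjusted p = 9.4e-10), NCoR from 16.7 and 15.3 to 238 and 251 (3.92 ± 0.27, edgeR adjusted p = 2.6e-05) and HDAC3 from 13.1 and 13.8 to 176 and 225 (3.87 ± 0.42, edgeR adjusted p = 4.1e-18). The replicates lay close together on both sides of a wide gap. PU.1, too, was gained at the Acod1 promoter, from 8.27 and 9.96 to 99.4 and 97.5 (3.43 ± 0.24, edgeR adjusted p = 6.2e-28), and PGC1b from 1.18 and 2.79 to 93.9 and 65.2 (5.21 ± 0.50, edgeR adjusted p = 3.2e-06).

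Signal ran on through the Acod1 gene body and past its end. In the element 11.5 kb beyond the start, downstream of the gene, p300 was 2.51 and 2.63 under vehicle and 163 and 212 with KLA (6.15 ± 0.33 SE, edgeR adjusted p = 5e-10). ERK1 was 0 and 3.47 against 239 and 112 (6.36 ± 0.71, edgeR adjusted p = 0.0036), the highest mean ERK1 level among the Acod1 regions. HDAC3 11 kb beyond the start was 1.45 and 2.21 against 177 and 256 (6.77 ± 0.54, edgeR adjusted p = 2.1e-32). No vehicle library exceeded 4 tags per 10 M at these 3 regions. The plot of p300 along both loci shows separate peaks at Nos2 and a chain of regions across Acod1.

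**Figure D3:**
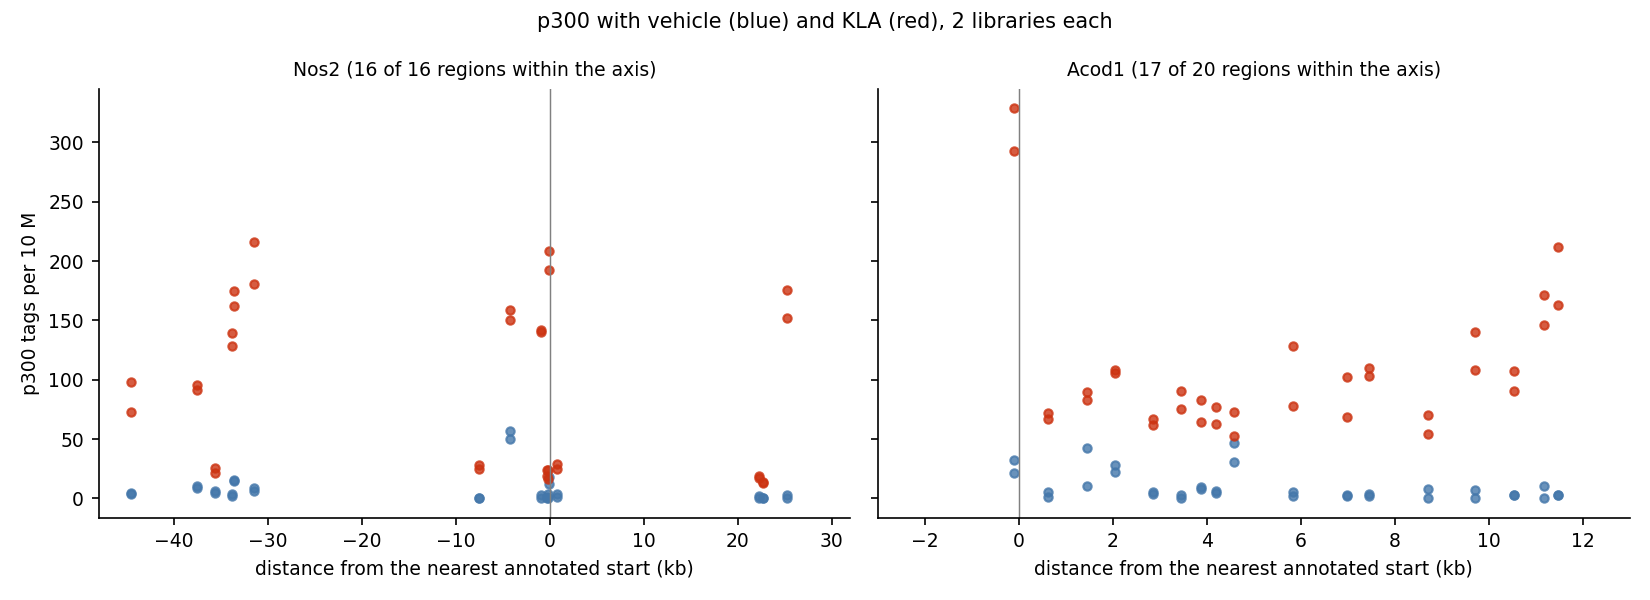
p300 tags per 10 M (y axis) against distance from the nearest annotated start in kb (x axis) for Nos2 (16 of 16 regions) and Acod1 (17 of 20 regions within the axis), with 2 vehicle (blue) and 2 KLA (red) libraries at each region. KLA libraries reached 192 and 209 at the Nos2 promoter and 293 and 329 at the Acod1 promoter.

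One interior Acod1 region went the other way for PGC1b. About 4.5 kb inside the gene PGC1b fell from 153 and 173 to 56.8 and 55.5 (-1.54 ± 0.27 SE, edgeR adjusted p = 0.00043). In the DMSO experiment it fell from 221 and 243 to 107 and 99.7 (-1.17 ± 0.29, edgeR adjusted p = 0.0058), a call lost without DMSO KLA replicate 2 (-1.12). This was the Acod1 region with the highest PGC1b level under vehicle in both experiments, while its neighbours rose. p300 at 4.6 kb inside was 30.7 and 46.7 against 52.2 and 72.4, under the 2-fold limit (0.69 ± 0.29, edgeR adjusted p = 0.048).

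To compare acetylation with and without NCoR, H3K27ac was counted over open chromatin regions, of which 12 of 15 at these loci passed the filter on low values. In WT cells KLA raised 5 of 12 (6.49% of all tested regions) and in NKO cells 3 of 12 (2.75%). The genotypes themselves were called different at 0 of 12 regions under vehicle (1.0% of all in either direction), 0 with KLA (0.789%) and 0 in the genotype by KLA interaction (0.697%), by edgeR, TMM factors and DESeq2, with 0, 2 and 0 regions at an unadjusted p under 0.05. Without vehicle replicate 2 the WT count dropped to 1, without vehicle replicate 1 to 3 and without KLA replicate 2 to 2, and without KLA replicate 1 the NKO count dropped to 1. An effect called in WT and not in NKO therefore does not by itself show a difference between them. With 2 libraries in each group, these tests cannot exclude a difference either.

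Gch1 showed the clearest acetylation gain in both genotypes. In its intron, 1.3 kb inside, H3K27ac rose in WT from 39.7 and 49.4 to 114 and 116 (1.36 ± 0.21 SE, edgeR adjusted p = 2.6e-06) and in NKO from 57.5 and 59.2 to 129 and 135 (1.18 ± 0.20, edgeR adjusted p = 2.9e-05). At the Acod1 promoter WT rose from 15.8 and 18.3 to 39.0 and 44.8 (1.29 ± 0.35, edgeR adjusted p = 0.0077), lost without vehicle replicate 1 (1.19) or 2 (1.40) or KLA replicate 2 (1.18). NKO there was 27.3 and 21.5 against 37.7 and 34 (0.57 ± 0.34, edgeR adjusted p = 0.3), with no overlap between vehicle and KLA in either genotype. At the Nos2 promoter WT libraries were 6.93 and 5.60 under vehicle and 15.7 and 19.3 with KLA (1.48 ± 0.69, edgeR adjusted p = 0.15) and NKO libraries 2.21 and 6.38 against 2.65 and 6.94, and neither genotype was called. With KLA the NKO libraries lay below the WT libraries at this promoter (-1.89), a difference that was not called. The interaction values of the members ran from -2.01 at Slc7a2 to 1.29 at Odc1, none of them called.

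Ass1, 27.7 kb upstream, had H3K27ac of 30.3 and 21.4 under vehicle and 53.4 and 61.4 with KLA in WT (1.16 ± 0.33 SE, edgeR adjusted p = 0.011), lost with DESeq2 (1.01) and without vehicle replicate 2 (0.92) or KLA replicate 2 (1.06). In NKO it was 14.0 and 23.8 against 55.7 and 30.6 (1.18 ± 0.35, edgeR adjusted p = 0.015), lost without vehicle replicate 1 (0.88) or KLA replicate 1 (0.67). Arg1, 2.9 kb upstream, was 27.1 and 22.4 against 12.6 and 14.5 in WT (-0.87 ± 0.39, edgeR adjusted p = 0.14) and 31 and 36.0 against 25.5 and 36.1 in NKO (-0.13 ± 0.35, edgeR adjusted p = 0.85). With KLA the NKO libraries lay above the WT libraries at this element, but the difference did not pass the test (1.17 ± 0.39, edgeR adjusted p = 0.13).

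To see what HDAC3 inhibition did, H3K27ac was compared between DMSO and RGFP966 in the presence of KLA, over windows of 1000 bp, with 10 member regions. The windows came from open chromatin of resting cells, and Nos2, Arg2 and Ass1 had no region among them. KLA with DMSO raised 4 of 10 and lowered 2 (6.73% and 28.1% of all). RGFP966 raised 2 and lowered 1 of 10 (26.9% and 9.53% of all), but with TMM factors none was higher and 2 were lower, and TMM moved the median of all regions by -0.34. DMSO with KLA is the shared reference of both comparisons.

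The Slc7a2 promoter lost part of its gain under RGFP966. H3K27ac there was 6.64 and 10.5 with DMSO and vehicle, 174 and 109 with DMSO and KLA (4.05 ± 0.33 SE, edgeR adjusted p = 1.2e-32) and 61.2 and 44.7 with RGFP966 and KLA (-1.42 ± 0.24 against DMSO and KLA, edgeR adjusted p = 3.8e-08), so the inhibitor libraries lay between the other groups. The Slc7a2 element 11.2 kb upstream rose with KLA (18.3 and 18.3 against 57.6 and 52.2, 1.58 ± 0.32, edgeR adjusted p = 3.2e-06) and stayed at 50.7 and 45.4 with RGFP966 (-0.20 ± 0.27, edgeR adjusted p = 0.53). Acod1, 4.6 kb inside, rose from 2.49 and 2.62 to 56.3 and 53.0 (4.37 ± 0.47, edgeR adjusted p = 4.9e-19) and was 34.2 and 37.9 with the inhibitor, below both KLA libraries but under 2-fold (-0.60 ± 0.29, edgeR adjusted p = 0.059).

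Arg1 was changed in the opposite sense. In the element 22.9 kb upstream H3K27ac fell with KLA from 34.9 and 46.2 to 13.6 and 11.8 (-1.66 ± 0.36 SE, edgeR adjusted p = 2e-05) and was 29 and 30.5 with RGFP966 (1.21 ± 0.37 against DMSO and KLA, edgeR adjusted p = 0.0023). At the promoter it was 73.9 and 71.5, then 41.4 and 32 with KLA, and 79.0 and 90.1 with RGFP966 (1.19 ± 0.26, edgeR adjusted p = 2.3e-05). Both inhibitor gains kept their direction but missed the 2-fold limit with TMM factors (0.88 and 0.86). Gch1, 11.4 kb inside, fell with KLA from 106 and 105 to 40.8 and 32 (-1.52 ± 0.26, edgeR adjusted p = 4e-08), with 57.3 and 60.3 under the inhibitor (0.68 ± 0.27, edgeR adjusted p = 0.021), whereas Gch1 1.2 kb inside rose from 160 and 184 to 548 and 423 (1.5 ± 0.20, edgeR adjusted p = 1.1e-12).

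To address the dependence on PGC1b, the same 10 regions were compared between PGC1b flox/flox and PGC1b flox/flox, LysMCre cells. KLA raised 4 and lowered 1 in flox/flox cells (5.22% and 25.6% of all), and raised 4 and lowered 4 in Cre cells (4.18% and 32.5%). Under vehicle the genotypes were called different at 0 of 10 regions (0.397% of all in either direction), by edgeR, TMM factors and DESeq2, with 2 at an unadjusted p under 0.05. With KLA 1 was lower in Cre cells (6.81% of all were lower), and the interaction was called below 0 at 2 (4.6%). The losses depended on the scaling, since TMM factors left 1 lower in Cre cells, 0 lower in flox/flox cells and 0 in either genotype comparison, and DESeq2 likewise 0 in both.

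Arg1 supplied each of these genotype calls. At the promoter H3K27ac was 153 and 127 under vehicle and 132 and 142 with KLA in flox/flox cells (-0.04 ± 0.15 SE, edgeR adjusted p = 0.83), and 157 and 151 against 67.9 and 71.0 in Cre cells (-1.15 ± 0.16, edgeR adjusted p = 1.7e-11). The Cre libraries with KLA were thus the only 2 of the 8 below 120, and the interaction was -1.11 ± 0.22 (edgeR adjusted p = 1.4e-05). In the element 2.8 kb upstream flox/flox cells had 233 and 251 against 202 and 220 (-0.20 ± 0.11, edgeR adjusted p = 0.13) and Cre cells 236 and 231 against 105 and 101 (-1.18 ± 0.13, edgeR adjusted p = 1.8e-18). Cre was lower than flox/flox with KLA there (-1.04 ± 0.13, edgeR adjusted p = 1.1e-13), a call that missed the 2-fold limit without flox/flox KLA replicate 2 (-0.97), and the interaction was -0.99 ± 0.17 (edgeR adjusted p = 5.4e-07), just under 2-fold.

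In the element 22.9 kb upstream the interaction was -1.16 ± 0.35 SE (edgeR adjusted p = 0.008), from 68.4 and 72.7 against 41.6 and 42.2 in flox/flox cells and 84.8 and 75.6 against 28.9 and 14.3 in Cre cells. It was not called without Cre KLA replicate 2 (-0.72) or Cre vehicle replicate 1 (-1.07). With TMM factors the interactions at the 3 Arg1 regions were -0.92, -0.80 and -0.97, in the order promoter, 2.8 kb and 22.9 kb, each below 0 and within 2-fold, DESeq2 gave -0.93 and -0.98 at the promoter and 22.9 kb, and the promoter interaction also fell within 2-fold without flox/flox vehicle replicate 2 (-0.99). The share of tags in regions was 35.8% and 35.9% in flox/flox vehicle libraries, 29.9% and 30.1% with KLA, 31.6% and 30.9% in Cre vehicle libraries and 22.4% and 22% in Cre KLA libraries, so it was lowest in the group in which the Arg1 values were lowest, and its part in the result was not tested.

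**Figure D4:**
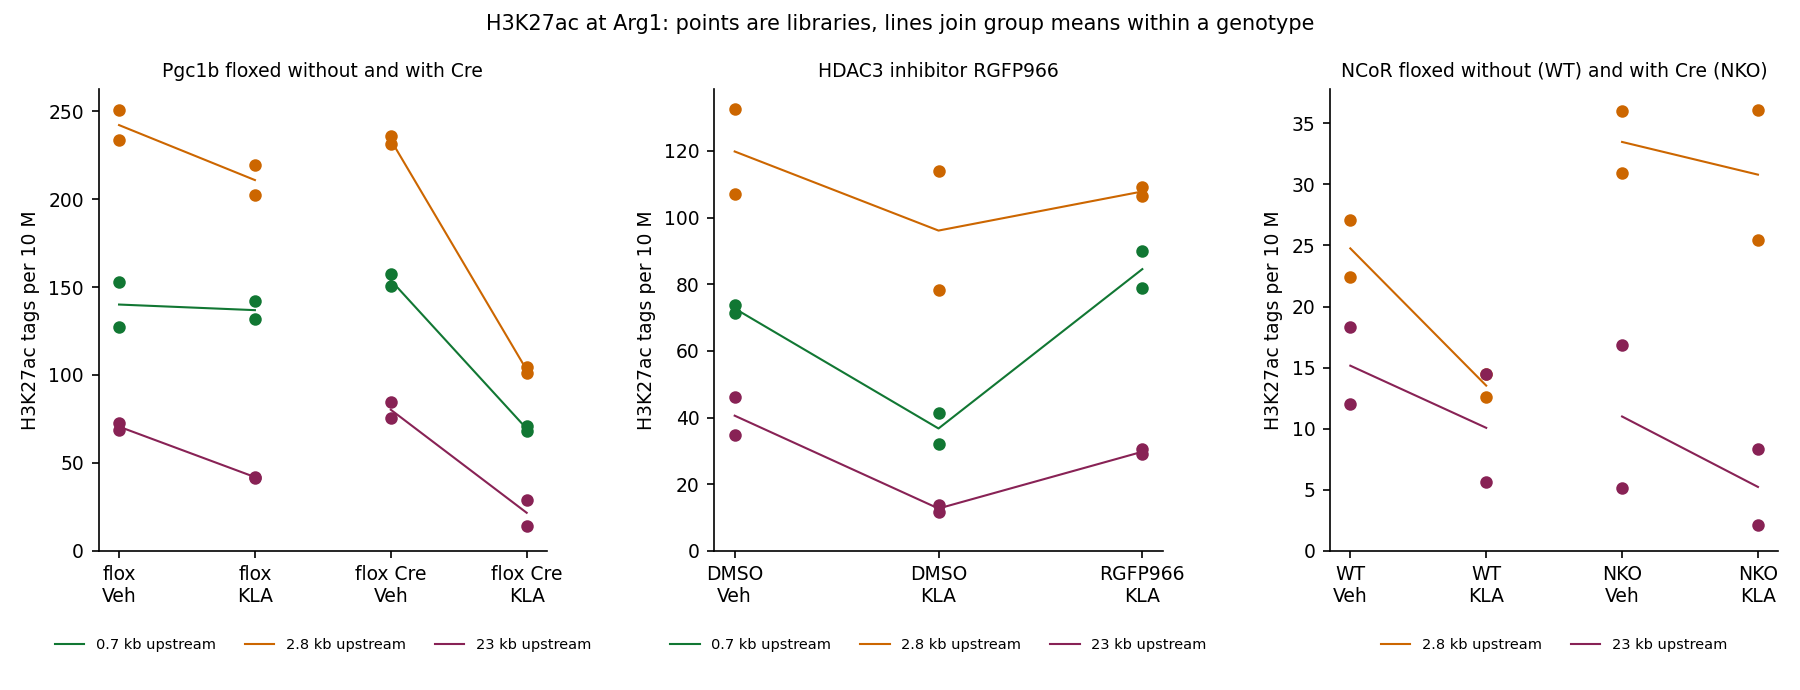
H3K27ac tags per 10 M (y axis) at Arg1 regions by group (x axis), 1 panel for each experiment. Points are libraries and lines join group means within a genotype, with 67.9 and 71.0 at the promoter in the Cre libraries with KLA against 132 and 142 in the flox/flox libraries with KLA.

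Other members responded to KLA in both Pgc1b genotypes. The Slc7a2 promoter rose in flox/flox cells from 13.5 and 6.24 to 153 and 129 (3.78 ± 0.26 SE, edgeR adjusted p = 2.5e-43) and in Cre cells from 11.8 and 16.6 to 97.5 and 95.1 (2.76 ± 0.26, edgeR adjusted p = 1e-24), with an interaction of -1.02 that did not pass the test (edgeR adjusted p = 0.067) and was called without flox/flox vehicle replicate 1 (-1.72). Gch1 1.2 kb inside rose alike, from 216 and 186 to 569 and 589 and from 175 and 160 to 529 and 460, with an interaction of 0.04 ± 0.13 (edgeR adjusted p = 0.89). Acod1 4.6 kb inside rose from 5.05 and 6.93 to 70.4 and 66.4 and from 10.6 and 6.63 to 61.4 and 48.2 (interaction -0.87 ± 0.55, edgeR adjusted p = 0.3). The Odc1 promoter differed between genotypes under vehicle, at 252 and 258 in flox/flox and 156 and 150 in Cre cells, by less than 2-fold (-0.74 ± 0.13, edgeR adjusted p = 4.1e-06).

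To test the role of ERK signaling, PGC1b was first compared between DMSO with vehicle and DMSO with KLA, where it rose at 32 of 54 member regions and fell at 1 (16.4% and 1.23% of all), or at 25 and 1 with TMM factors, which lowered the median of all regions by 0.44. The members' median was 2.39 (2.38 with empty regions at their bounds) against 0.45. The same DMSO and KLA libraries were also the reference for the ERK inhibitor. Adding the ERK inhibitor called 0 of 54 member regions with edgeR (0.286% of all in either direction), 2 with TMM factors and 5 with DESeq2, while 12 had an unadjusted p under 0.05. At Acod1 14 of 16 regions lay above 0, with a median of 0.80, and PGC1b 6.9 kb inside the gene was 211 and 198 with DMSO and KLA and 441 and 433 with the inhibitor (1.10 ± 0.25 SE, edgeR adjusted p = 0.054, called with TMM factors at 1.31). The element 11.6 kb beyond the start was 284 and 191 against 519 and 450 (1.03 ± 0.25, edgeR adjusted p = 0.07, called with TMM factors at 1.25). Values at the Odc1 promoter (116 and 78.9 against 45.4 and 28.4, -1.40 ± 0.47, edgeR adjusted p = 0.17) and at Arg1 33.8 kb upstream (90.8 and 80.4 against 40.7 and 37.5, -1.13 ± 0.49, edgeR adjusted p = 0.29) were lower with the inhibitor but did not pass the test.

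NCoR was called lower with the ERK inhibitor at 20 of 54 member regions, which is 37.0% of them, beside 48.6% of all tested NCoR regions. The difference between these shares was not tested. The members' median was -0.96, against -1.20 over all regions. TMM factors raised the median of all regions by 1.16 and left 1 member region lower and 3 higher, with a median of 0.20. The counts with 1 library left out ran from 4 to 16, with 5 without KLA replicate 1 and 4 without KLA replicate 2. The labels give the inhibitor and KLA libraries different dates, so date and inhibitor cannot be told apart. The titles of these KLA libraries name no DMSO, unlike those of the PGC1b reference libraries. The share of tags in regions was 34.16% and 33.32% in the NCoR KLA libraries. It was 15.79% and 14.97% in the NCoR libraries with the inhibitor, and its part in the lower NCoR values was not tested.

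**Figure D5:**
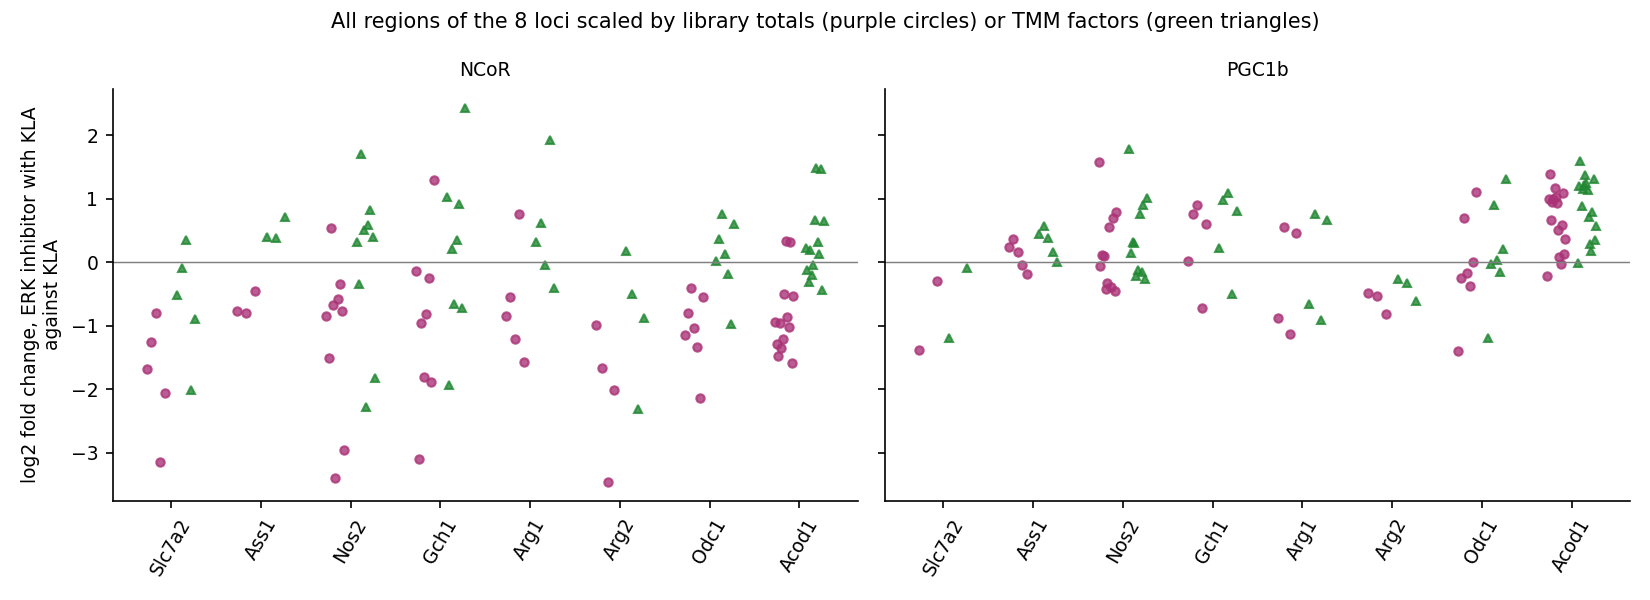
Log2 fold change of KLA with the ERK inhibitor against KLA (y axis) for the regions of each locus (x axis), for NCoR and PGC1b, scaled by library totals (purple circles) or TMM factors (green triangles). For NCoR 49 of 54 regions lie below 0 with totals and 22 of 54 with TMM factors, and 1 PGC1b region of Odc1 with both reference libraries at 0 is left out.

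The Arg2 element 7.3 kb inside the gene was the region called lower for NCoR under both scalings. NCoR there was 64.0 and 41.5 with KLA and 6.76 and 2.59 with the inhibitor (-3.46 ± 0.65 SE, edgeR adjusted p = 0.00095, and -2.31 with TMM factors). Its own gain with KLA, from 10.8 and 30.6 (1.34 ± 0.49, edgeR adjusted p = 0.044), was lost without vehicle replicate 1 (0.77) or KLA replicate 1 (1.00) or 2 (1.62). The same KLA libraries served in both NCoR comparisons, so the gain and the loss are not independent. At the Acod1 promoter NCoR was 241 and 255 against 157 and 86.2 (-1.02 ± 0.26, edgeR adjusted p = 0.0052), and TMM factors turned the direction (0.14). Arg1 22.9 kb upstream was 17.8 and 19.4 against 33.0 and 30.2 (0.76 ± 0.38, edgeR adjusted p = 0.097), and was called higher with TMM factors (1.92). The NCoR direction at these loci with the inhibitor therefore differed with the scaling, apart from Arg2 and Slc7a2, whose medians were below 0 under both (-1.84 and -0.69 at Arg2, -1.68 and -0.52 at Slc7a2).

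In osteoclast culture fewer regions were assigned to these genes. ERK1 was called on day 4 against day 0 at 0 of 9 member regions with edgeR (2.35% of all in either direction), and also at 0 with TMM factors and DESeq2, with 3 at an unadjusted p under 0.05. The description of ERK1 day 4 replicate 2 names it as another replicate number with a later date than the other ERK1 libraries, and the count was also 0 without it. p300 rose at 8 of 15 (53.3%, beside 62.2% of all), and TMM factors, which lowered the median of all regions by 1.61, left 1 and DESeq2 0. Without 1 library the count ran from 1 (day 4 replicate 1) to 13 (day 0 replicate 2), with 3 without day 4 replicate 2. Arg1 2.9 kb upstream had p300 of 13.2 and 36.2 on day 0 and 95.8 and 107 on day 4 (2.19 ± 0.47 SE, edgeR adjusted p = 0.0023, or 0.58 with TMM factors). Odc1 92.5 kb upstream was at 0 on day 0 and at 37.2 and 34 on day 4, at least 7.89-fold higher, and was the region TMM factors left. Summed p300 over osteoclast marker genes went from 621 to 2845 and over macrophage marker genes from 606 to 1498, and the part of either in these values was not tested.

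A list of 32 further genes of arginine, tetrahydrobiopterin, polyamine and tricarboxylic acid cycle metabolism gave a wider frame. With KLA p300 rose at 36 and fell at 13 of 110 tested regions of these genes, where 42.1% of all p300 regions rose. p65 rose at 52 and fell at 3 of 82 (57.0% of all rose), NCoR rose at 15 and fell at 11 of 91 (23.4% and 16.7% of all) and HDAC3 rose at 25 and fell at 4 of 79 (27.5% and 11.3% of all). Among all called regions 76.6% were higher for p300 and 91.3% for p65. Suclg1 (a subunit of succinyl-CoA synthetase) had the called NCoR gain with the smallest p-value of the list (4.22 ± 0.55 SE). Oaz2 (an antizyme that lowers ornithine decarboxylase) had the called NCoR loss with the smallest p-value (-2.15 ± 0.26). Neither Fosl2 nor PU.1 rose at any region of the list, out of 49 and 75 tested, with 1 and 8 lower. Of all Fosl2 regions 11.4% rose and 4.19% fell, and of all PU.1 regions 4.53% rose and 21.7% fell. H3K27ac in WT cells was called at 0 of 40, beside 1888 of all 18504 tested regions. The differences from these shares were not tested.

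For each of 9 comparisons, the group means of the scaled tags were summed over all regions of a gene. The change of the gene was the log2 ratio of its KLA sum to its vehicle sum, with 1 added to each sum. By these changes, 6071 genes with regions in all 9 comparisons could be ranked by their distance from a member. Il27 was nearest to Nos2 (Euclidean distance 1.10), Prr15 to Arg1 (0.915), Itgb1bp2 to Ass1 (0.746), Slc9b2 to Gch1 (0.477), Trim52 to Odc1 (0.617) and Hrc to Acod1 (1.91). Acod1 thus had the most distant nearest gene of these 6 members. Arg2 and Slc7a2 lacked regions in 1 of the 9 tables and were not ranked.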

How the data were processed

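The authors deposited whole-number tag counts (not normalized, at most 3 tags per position) for the regions of each table. Per the submitters' processing notes, Bowtie2, HOMER, DESeq2 and mm10 were used (versions not given in the sources used here). Factor peaks of all conditions of a table had been merged. H3K27ac tags were counted at open chromatin sites. Input samples were not analysed here.

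Counts were tested over whole tables with edgeR 4.0.16 (R 4.3.3; quasi-likelihood F-test, two-sided, Benjamini-Hochberg adjustment), with offsets from library totals and regions of at least 4 tags (16 for H3K27ac) in 1 or more libraries. The code was tested on simulated data. Alternatives were TMM factors, DESeq2 1.42.0, no filter, a replicate block and leaving out each library. Floors use 3 tags per library. Replicate numbers did not pair libraries (correlations of deviations from -0.027 to 0.026).

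Described for each member were the promoter element and 3 others with regions in the most tables. Members and lists were chosen with earlier results of these data known, and further regions were named after their values were seen. Recomputed distances were within 50 bp of the deposited ones at 443 of 543 regions.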

Additional observations from a re-analysis of the deposited data

Results flagged for a closer look

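The KLA response of H3K27ac differed between PGC1b flox/flox, LysMCre and PGC1b flox/flox cells at 2 Arg1 regions, by the genotype by KLA interaction of edgeR. The interaction was -1.16 in the element 22.9 kb upstream (edgeR adjusted p = 0.008) and -1.11 at the promoter 0.7 kb upstream (edgeR adjusted p = 1.4e-05). With TMM factors both stayed below 0 but within 2-fold (-0.97 and -0.92).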

How the results depend on the processing

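The counts of called member regions depended on the scaling and on single libraries. With TMM factors the count was 11 for PU.1 with KLA, 2 for PGC1b and 4 for NCoR with the ERK inhibitor, 1 for p300 on day 4, 5 for H3K27ac in Pgc1b Cre cells with KLA, and 0 for Cre against flox/flox with KLA and for their interaction. With DESeq2 the same counts were 11, 5, 5, 0, 5, 0 and 0, and those for p65 and for H3K27ac in WT were 29 and 3. Odc1 turned direction for p65, to -1.01 at the promoter with TMM factors, and 89.5 kb upstream to -0.19 with TMM factors and -0.15 with DESeq2. NCoR with the ERK inhibitor turned to 0.025 and 0.039 at the Odc1 promoter, 0.14 and 0.15 at the Acod1 promoter and 0.13 and 0.14 at Odc1 34.5 kb upstream (TMM factors and DESeq2). The cause was not tested.

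TMM factors moved the median of all regions by -0.28 for HDAC3, -0.11 for PGC1b, -0.20 for ERK1, 0.21 for PGC1b with the ERK inhibitor, -0.96 for ERK1 on day 4, -0.14 and 0.20 for H3K27ac in WT and NKO with KLA, -0.30 for NKO against WT under vehicle, 0.34 for the NKO interaction, 0.42 with DMSO, 0.43 and 0.61 in Pgc1b flox/flox and Cre cells, and 0.21, 0.39 and 0.19 for Cre against flox/flox under vehicle, with KLA and in the interaction.

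Among all called regions, the share that was higher moved by over 10 points between library totals and TMM factors, being 71 and 59.9% for HDAC3 KLA vs Veh, 91.3 and 56.5% for p65 KLA vs Veh, 17.2 and 46.3% for PU.1 KLA vs Veh, 80.3 and 67.4% for ERK1 KLA vs Veh, 76.6 and 57.8% for p300 KLA vs Veh, 93 and 75.1% for PGC1b DMSO KLA vs DMSO Veh, 37.9 and 65.9% for PGC1b ERKi KLA vs DMSO KLA, 1.29 and 50.5% for NCoR ERKi KLA vs KLA, 99.6 and 69.7% for p300 Day4 vs Day0, 63.6 and 48.3% for H3K27ac WT KLA vs Veh, 25.7 and 44.7% for H3K27ac NKO KLA vs Veh, 97.3 and 62.5% for H3K27ac NKO vs WT in Veh, 3.88 and 61.5% for H3K27ac NKO by KLA interaction, 19.3 and 42% for H3K27ac DMSO KLA vs DMSO Veh, 73.9 and 46% for H3K27ac RGFP966 KLA vs DMSO KLA, 16.9 and 41.7% for H3K27ac Pgc1b flox KLA vs Veh, 11.4 and 43% for H3K27ac Pgc1b flox Cre KLA vs Veh, 27 and 83.8% for H3K27ac Pgc1b flox Cre vs flox in Veh, 9.35 and 63.6% for H3K27ac Pgc1b flox Cre vs flox in KLA and 14.3 and 37.7% for H3K27ac Pgc1b genotype by KLA interaction. No ERK1 region was called on day 4 with TMM factors.

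Leaving out 1 library at a time gave 14 to 35 calls for NCoR with KLA, 0 to 21 for Fosl2, 16 to 29 for PGC1b, 4 to 16 for NCoR with the ERK inhibitor, 1 to 13 for p300 on day 4, 1 to 5 for H3K27ac in WT, 1 to 2 in NKO, 0 to 2 for Cre against flox/flox with KLA and 1 to 3 for the interaction. The replicate block left 7 Fosl2 calls, the numbers not being shown to pair libraries, and dropping the filter on low values changed no region call. Leaving out a library turned the direction of no called result among 2032 values, while 109 values that were not called changed sign. Groups of 2 libraries limited what could be called.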
